A study of Mus musculus with 4 samples.

Results

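Vascular smooth muscle cells (VSMCs) were taken as the 488 cells, of 14147 kept cells in 3 libraries of mouse hippocampus, that met a fixed rule on their unique molecular identifiers (UMIs, 1 tag per captured RNA molecule). A kept cell had at least 650 detected genes. A VSMC had at least 60 UMIs of *Acta2*, *Tagln* and *Myh11* together per 10000 of its UMIs, with *Cldn5*, *Flt1* and *Ly6c1* together under 40, *Slc17a7* under 4 and *Mog*, *Mag* and *Ermn* together under 12. The members were thus selected on the measured levels of these 10 genes, so their levels are given as a description and were not tested.

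The study asked how the cell types of the hippocampus change after global cerebral ischaemia produced by two-vessel occlusion (2VO). Both common carotid arteries of C57BL/6 mice were clamped for 50 min in the 2VO group, while in sham mice the clamps were released at once, and whole hippocampi were taken on day 7 with 1 mouse per library. The labels give an age of 12 weeks for both groups, and the methods give 6 to 10 weeks. The libraries sham 1, sham 2 and 2VO 1 were analysed. The library 2VO 2 was not analysed here, so the 2VO group is 1 mouse, and every test below assumes that this mouse varies like the sham mice.

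VSMCs wrap arteries and arterioles and set their width. Calcium that enters the cell or leaves its stores lets myosin light chain kinase switch on smooth muscle myosin, which pulls on alpha smooth muscle actin, and nitric oxide relaxes the cell through cyclic GMP. Capillaries carry pericytes (PERs) in place of VSMCs, and endothelial cells (ECs) line both. In injured vessels, VSMCs are known to lose contractile proteins and take up a matrix-making state.

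VSMCs numbered 103 in sham 1, 259 in sham 2 and 126 in 2VO 1. They were 2.02% of kept cells in sham 1 (95% Clopper-Pearson interval 1.65 to 2.44), 5.05% in sham 2 (4.47 to 5.69) and 3.22% in 2VO 1 (2.69 to 3.82). The 2VO share lay between the sham shares, which differed from each other by more than their counting intervals, so no change with 2VO could be told from the spread between sham mice. With 2 libraries against 1, no permutation test can pass 0.05. No barcode was shared between the VSMCs of any pair of libraries. Median depth was 7217 UMIs per VSMC for sham 1, 6496 for sham 2 and 3496 for 2VO 1, so 2VO cells were the shallowest. The summed VSMCs held 742131, 1756424 and 509343 UMIs.

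The rule left few cells near its main threshold. Members within 20 units of the smooth muscle threshold numbered 4, 10 and 7 in the order sham 1, sham 2 and 2VO 1. Cells that just missed it, while meeting the other criteria, numbered 0, 7 and 7. The lowest member stood at 60.4, 62.1 and 61.8 per 10000 UMIs, and the highest cell left out stood at 38.7, 56.8 and 55.8, in the same order of libraries.

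The label held for most of the cells. *Tpm2* (smooth muscle tropomyosin) and *Pln* (phospholamban, which restrains the calcium pump of the sarcoplasmic reticulum) are markers that the rule did not use. *Tpm2* stood at 58.4, 65.6 and 52.6 UMIs per 10000 in VSMCs of sham 1, sham 2 and 2VO 1, against 1.82, 1.84 and 0.810 in PERs. *Pln* stood at 11.5, 11.7 and 10.3 in VSMCs, and no PER library exceeded 0.0450. Both genes were thus present in VSMCs of each library and nearly absent from PERs and ECs. *Kcnj8* and *Abcc9*, which form the potassium channel that marks brain PERs, had their highest VSMC levels at 0.290 and 0.157, and their lowest PER levels at 7.65 and 12.5. The fibroblast genes *Dcn*, *Lum*, *Col1a1* and *Slc6a13* together gave 0, 37 and 3 UMIs in all VSMCs of the 3 libraries. The PERs, ECs and fibroblasts set beside VSMCs were gated on their own markers, so these comparisons are a description.

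**Figure D1:**
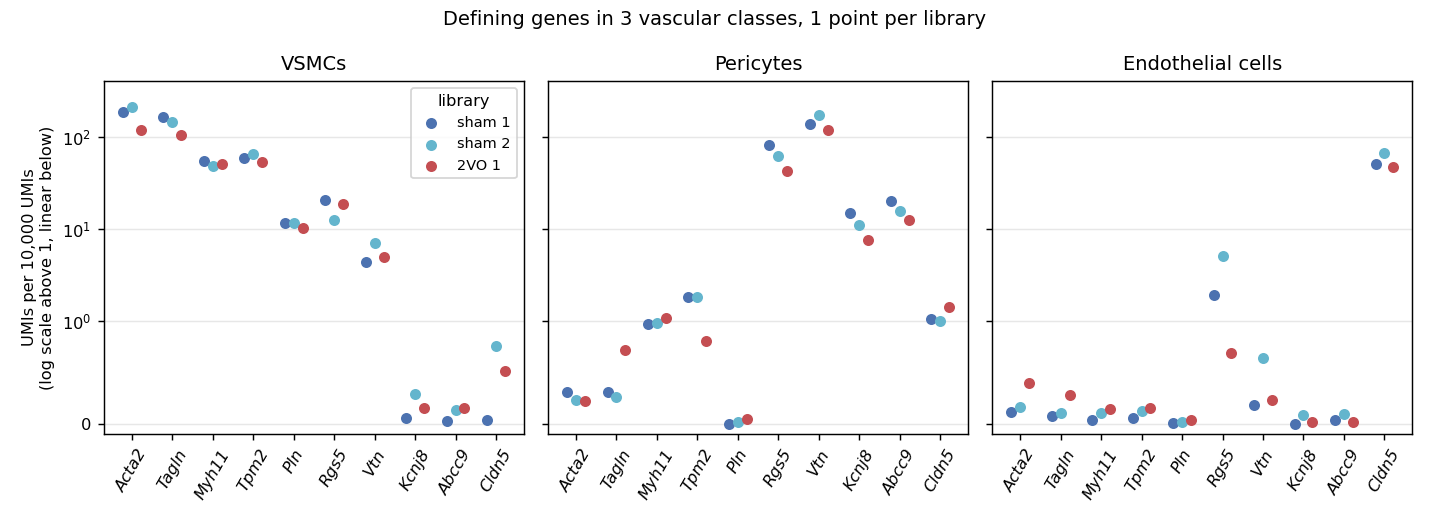
Level of 10 defining genes (UMIs per 10000, log scale above 1 and linear below) in VSMCs, PERs and ECs, with 1 point for each of sham 1, sham 2 and 2VO 1. VSMCs hold the first 5 genes at 10.3 or more in every library and *Kcnj8*, *Abcc9* and *Cldn5* below 1.

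The members themselves were not uniform. *Rgs5*, a regulator of G protein signalling abundant in PERs, was detected in most VSMCs but was spread widely, with a median of 10.8 per 10000 UMIs and a highest cell of 446 in sham 1. The summed level of *Rgs5* was 20.8, 12.6 and 18.5 in VSMCs. The PER markers *Kcnj8*, *Abcc9*, *Atp13a5*, *Vtn* and *Higd1b* together reached 20 per 10000 in 21.4% of VSMCs in sham 1, 15.1% in sham 2 and 21.4% in 2VO 1. Such cells were therefore present in all 3 libraries at like shares. Most of the signal was *Vtn* (4.39, 7.07 and 5.03 UMIs per 10000) and *Higd1b* (5.24, 3.96 and 4.08), since the channel genes stayed near 0.

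One cell stood apart and had to be dealt with before the 2VO comparison. It was a member from 2VO 1 with 38382 UMIs, 10.98 times the median VSMC of its library, while the next deepest held 11184. It met the rule through 485 UMIs of *Tagln*, with 11 of *Acta2* and 1 of *Myh11*, so the contractile markers did not go together in it. It also held 1669 UMIs of *Ttr*, the thyroid hormone carrier made by choroid plexus, 1092 of *Igfbp2*, 366 of *Ptgds* and 348 of *Gpx3*. The doublet caller did not mark it. This single cell supplied 7.54% of the UMIs of 2VO VSMCs, so the counts of calls, and many of the values, are given with and without it.

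**Figure D2:**
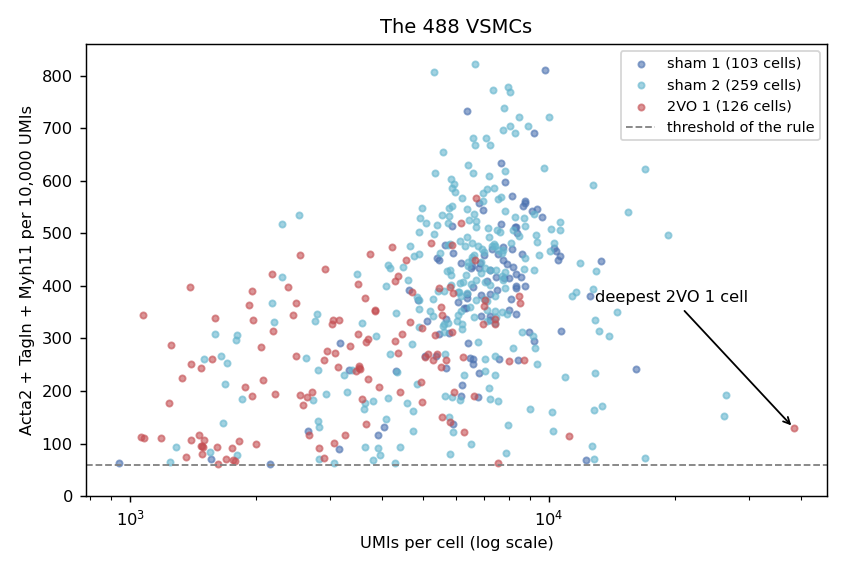
Summed *Acta2*, *Tagln* and *Myh11* (UMIs per 10000) against UMIs per cell (log scale) for the 488 VSMCs, coloured by library, with the threshold of 60 dashed. The deepest 2VO 1 cell lies alone at 38382 UMIs with a sum of 129, and most other 2VO 1 cells lie to the left of the sham cells.

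The leading contractile genes had their lowest level in 2VO VSMCs. *Acta2* (alpha smooth muscle actin) stood at 184 UMIs per 10000 in sham 1, 207 in sham 2 and 117 in 2VO 1. *Tagln* (transgelin, an actin-binding protein) stood at 165, 145 and 105. *Myh11* (smooth muscle myosin heavy chain) stood at 54.5, 48.0 and 50.1, and its 2VO level lay between the sham levels. The cells differed in the same way, with a median sum of the 3 genes of 398 per 10000 in sham 1, 401 in sham 2 and 263 in 2VO 1.

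Depth moved with these levels. Members with under 4000 UMIs were 7.77% of sham 1, 15.8% of sham 2 and 61.1% of 2VO 1. Their median sum was 102, 214 and 237 per 10000. Among the deeper members the median sum was 416, 430 and 313. *Acta2* alone had a median of 175, 217 and 142 in the deeper members, while *Myh11* had 50.8, 46.9 and 47.2 and *Pln* had 11.7, 12.1 and 12.8. The 2VO value of *Acta2* thus stayed the lowest among deeper cells, and that of *Pln* did not. The part of depth in the lower *Acta2* was not tested further.

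To compare the libraries, UMIs were summed over the VSMCs of each library, scaled to each library's normalised total (CPM) and tested with the quasi-likelihood test of edgeR. Calls needed a Benjamini-Hochberg adjusted p below 0.05 together with a change of more than 1.5-fold. In sums over cells, fewer cells that express a gene and less RNA per cell cannot be told apart. Of 8460 genes tested, 41 (0.485%) rose and 1 (0.0118%) fell in 2VO, or 0.496% in both directions. These calls rest on 1 residual degree of freedom, and 1031 genes had an unadjusted p under 0.05, of which 529 (6.25%) were higher and 502 (5.93%) lower.

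Many of the called genes took most of their 2VO UMIs from 1 cell. Of the 42, 16 had more than 50% of their 2VO UMIs in 1 cell, and 20 had under 20% there. *Gpx3* (a secreted glutathione peroxidase) had 0 counts in both sham libraries and all of its 348 counts in 2VO in 1 cell. *Igfbp2* (a binding protein for insulin-like growth factors) had 27.7, 97.0 and 2131 CPM, and 99.5% of the 2VO UMIs lay in 1 cell. *Ins2*, *Maob*, *Pcsk2*, *Sulf1* and *Ucp2* had 88.7% or more there. Without the deepest cell, 47 genes (0.567%) rose and 3 (0.0362%) fell, and 26 of the 42 called genes were called again. The 16 others could not be tested for lack of counts or lost the call. *Igfbp2* then stood at a log2 fold change of -2.65 with an adjusted p of 0.155 by edgeR, the opposite direction.

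**Figure D3:**
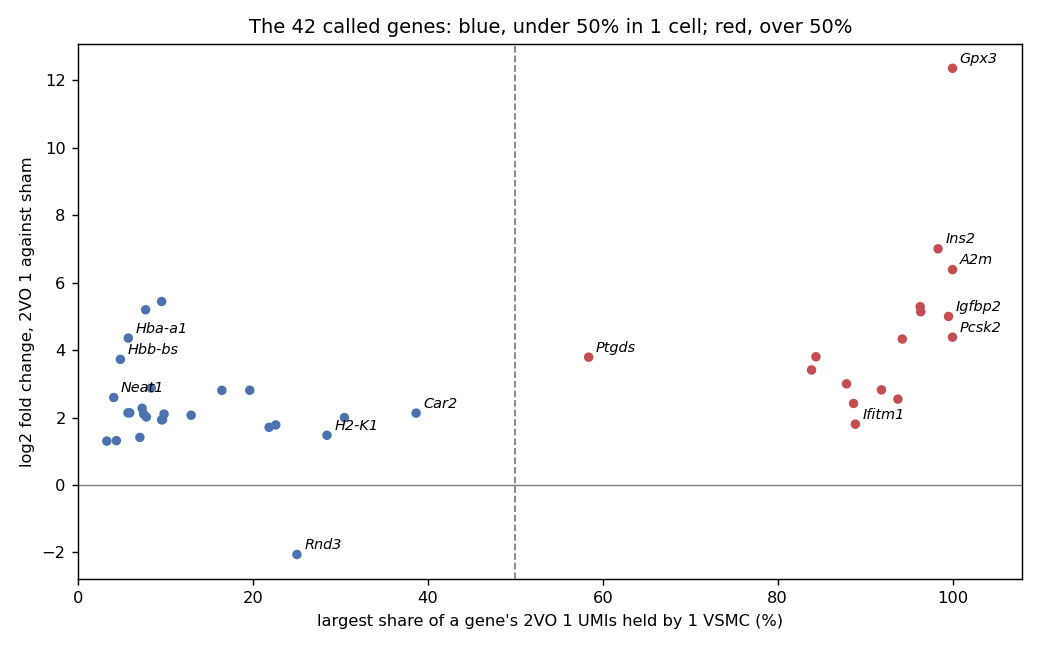
Log2 fold change of each of the 42 called genes (2VO 1 against sham) against the largest share of its 2VO 1 UMIs held by 1 VSMC. The 16 genes in red to the right of the dashed line at 50% take most of their 2VO UMIs from 1 cell, and the fitted value of *Gpx3*, at 0 in both sham libraries, depends on the prior count.

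Of the called genes, 3 noncoding RNAs with under 20% of their 2VO UMIs in any 1 cell are described first. *Neat1*, the RNA that builds nuclear paraspeckles (GRCm38 chr19:5824708-5845478, minus strand), stood at 97.0 CPM in sham 1, 123 in sham 2 and 672 in 2VO 1. It was found in 45 of 103, 115 of 259 and 104 of 126 VSMCs. The 2VO level was far above both sham levels, with a log2 fold change of 2.59 ± 0.24 (SE, 3 libraries) and an adjusted p of 0.000279 by edgeR. *Kcnq1ot1*, the antisense RNA of the imprinted *Kcnq1* locus (chr7:143203458-143296549), stood at 45.7, 41.1 and 181 CPM and rose by 2.07 ± 0.28 on the log2 scale. *Lncpint* stood at 12.5, 7.74 and 69.9 CPM and also rose, by 2.88 ± 0.46. Without the deepest cell the log2 fold changes of these 3 genes were 2.71, 2.19 and 3.01. The same contrast gave *Neat1* 2.17 in PERs and 1.79 in ECs, *Kcnq1ot1* 2.32 and 1.32, and *Lncpint* 1.68 and 0.86, so all 3 were higher there too. These 3 noncoding RNAs were picked from the calls and stand for no group. *Malat1* was at 57469, 46374 and 65185 CPM and *Meg3* at 51.3, 66.0 and 54.4 CPM, with adjusted p of 0.630 and 0.890 by edgeR.

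Genes of RNA handling and signalling were also among the calls, named here after their values were seen. *Ccnl1*, a cyclin of the splicing machinery, stood at 162, 128 and 357 CPM. *Ddx17*, an RNA helicase, stood at 88.7, 104 and 239 CPM. *Bcr*, a GTPase-activating protein for Rac, stood at 125, 163 and 387 CPM, with a log2 fold change of 1.41 ± 0.24. *Ncapd3*, a subunit of condensin II, stood at 26.3, 32.7 and 130 CPM. *Nr4a2*, an immediate early nuclear receptor, stood at 95.6, 36.9 and 274 CPM. In each of these 5 genes the 2VO level lay above both sham levels. In PERs the log2 fold changes were 0.76 for *Ccnl1*, 1.13 for *Ddx17*, 0.00 for *Bcr* and 0.15 for *Ncapd3*, and none of these 4 was called as differing from PERs.

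*Rnd3* was the only gene called lower over all members. It encodes a small GTP-binding protein without GTPase activity that restrains actomyosin contraction. *Rnd3* (chr2:51130438-51149111, minus strand) stood at 130 CPM in sham 1, 191 in sham 2 and 38.9 in 2VO 1. It was found in 41, 138 and 13 cells. It fell by 2.06 ± 0.36 on the log2 scale, with an adjusted p of 0.0312 by edgeR. Without the deepest cell this was 0.0165, and 0.151 without cells whose markers of other types reached a limit given below. With a smooth muscle sum of at least 100, and by DESeq2, 0 genes were called lower, so *Rnd3* lost its call. In PERs *Rnd3* stood at 194, 124 and 111 CPM.

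Other genes with low 2VO levels did not pass the threshold. *Hacd1*, an enzyme of fatty acid elongation, stood at 198, 142 and 58.3 CPM, with an adjusted p of 0.0774 by edgeR. *Dmp1* stood at 33.3, 44.0 and 3.89 CPM, *9530034E10Rik* at 45.7, 44.6 and 5.83, and *Lsm7*, a subunit of an RNA decay complex, at 83.1, 91.0 and 29.1. *Ly6h* had 25 and 42 counts in sham and 0 in 2VO, which allows up to 3 counts. Without the deepest cell, *Ly6h* and *9530034E10Rik* passed, at an adjusted p of 0.0403 and 0.0398 by edgeR. Of the sham counts of *Ly6h*, 84.0% in sham 1 and 52.4% in sham 2 lay in 1 cell, and its adjusted p was 0.224 by edgeR without members over 3 times the median depth.

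**Figure D4:**
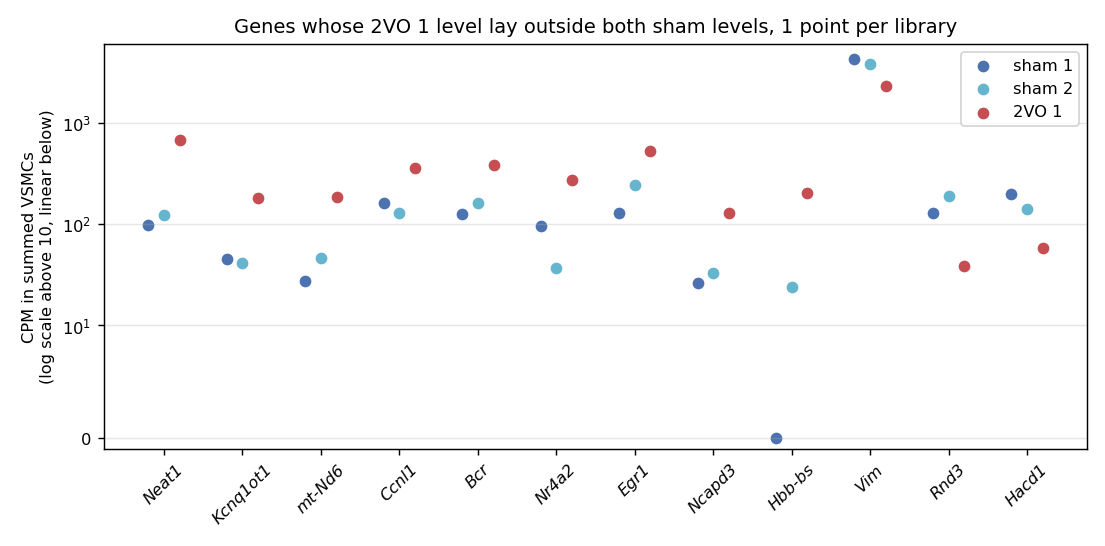
CPM in summed VSMCs (log scale above 10, linear below) of 12 genes with 1 point for each library. The 2VO 1 point lies above both sham points for the 9 genes from *Neat1* to *Hbb-bs* and below both for *Vim*, *Rnd3* and *Hacd1*, of which *Egr1*, *Vim* and *Hacd1* did not pass the test.

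Haemoglobin genes and genes of oligodendrocytes rose in VSMCs too. *Hbb-bs* (beta globin) stood at 0, 23.8 and 202 CPM. It was found in 53.2% of 2VO VSMCs and in 50.0% of 2VO ECs, which should lack it, at median depths of 3496 and 2056 UMIs. After thinning each cell to 1000 UMIs the shares were 21.4% and 28.2%. In sham 1 and sham 2 it was found in 0% and 12.0% of VSMCs and in 1.34% and 13.8% of ECs. Its EC levels were 242, 683 and 452 CPM with a log2 fold change of -0.04, and the response of VSMCs was called higher than that of ECs (3.99, adjusted p of 0.0136 by edgeR). Whether these UMIs came from RNA of other cells was not tested. *Trf*, *Tubb4a*, *Aplp1*, *Car2*, *Mal* and *Cnp*, which oligodendrocytes express strongly, were called as well. The same contrast gave *Trf* a log2 fold change of 1.95 in PERs and 2.62 in ECs.

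The whole marker lists did not all move alike. All 8 oligodendrocyte markers together stood at 2.63, 1.54 and 10.8 UMIs per 10000 in VSMCs, and all 8 had at least 1 UMI in each library. They stood at 8.23, 3.39 and 26.2 in PERs and at 4.61, 2.58 and 14.7 in ECs, so VSMCs shared their rise with both classes. In VSMCs the other lists were as follows. The 7 microglia markers stood at 4.86, 0.256 and 7.05, and the 4 haemoglobin genes at 0.0135, 0.296 and 3.65. Astrocyte markers (0.310, 2.32 and 0.609) and neuron markers (0.997, 2.41 and 0.609) were not highest in 2VO. Choroid plexus markers, mostly *Ttr*, stood at 11.3, 66.0 and 56.8, so they also differed between the sham libraries. In a further setting, VSMCs were left out where the markers of another cell type together reached 20 UMIs per 10000, or 100 for choroid plexus. PER markers were not used for this, and members with fewer UMIs of other types stayed in. In this setting 12 genes (0.154%) rose and 0 (0%) fell by edgeR, with 803 genes at an unadjusted p under 0.05. DESeq2, run on all members, called 4 higher and 0 lower. Of the 12, 10 were among the 42. They included *Neat1*, *Kcnq1ot1*, *mt-Nd6*, *Ncapd3*, *Lncpint*, *Bcr*, *Ccnl1*, *Ptgds* and the oligodendrocyte gene *Trf*. The log2 fold change of *Trf* was 2.81 over all members and 3.34 in this setting. *Tubb4a*, *Aplp1*, *Car2*, *Mal* and *Cnp* were not called in it.

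The 24 genes of actin, myosin and the thin filament were all tested by edgeR, and none was called. Outside the 3 genes of the rule, 3 of 21 were lower and 0 higher at an unadjusted p under 0.05. DESeq2 called no gene of any list other than *Gpx3*. In 12 of these 21 genes 2VO lay below both sham libraries and in 5 above both, where 38.4% of all genes lay below and 39.8% above. Their median log2 fold change was -0.30, against 0.00 over all genes. The median of all 24 was -0.33, and it was -0.22 without the deepest cell and -0.03 with cells thinned to 1000 UMIs. *Myl9*, the regulatory light chain, had 8850 CPM in sham 1, 8326 in sham 2 and 4815 in 2VO 1, with an adjusted p of 0.238 by edgeR. *Myl6*, the essential light chain, had 8616, 8728 and 6653 CPM, and *Csrp1* had 2445, 2519 and 1620. The light chains and *Csrp1* were each lowest in 2VO. *Flna* (filamin A) had 1609, 1482 and 1958 CPM and was highest in 2VO.

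The promoters of 3 genes are shown because *Acta2* leads the markers, *Myl9* had the lowest unadjusted p of the list and *Rnd3* was the gene called lower. Each line holds the 250 bases before the transcription start from RefSeq on GRCm38.p6, written 5′ to 3′ on the gene's strand. *Acta2* is chr19:34255374-34255623 (minus), *Myl9* is chr2:156775214-156775463 (plus) and *Rnd3* is chr2:51149112-51149361 (minus). Capitals mark exact matches to the consensus CArG box, the 10-letter motif that serum response factor binds, and to TATAAA, a form of the TATA box. The consensus used was CC, then only A or T, then GG. Sequences that differ from it by a letter were not searched for. A promoter without a marked box may thus still hold a site that serum response factor binds.
Acta2: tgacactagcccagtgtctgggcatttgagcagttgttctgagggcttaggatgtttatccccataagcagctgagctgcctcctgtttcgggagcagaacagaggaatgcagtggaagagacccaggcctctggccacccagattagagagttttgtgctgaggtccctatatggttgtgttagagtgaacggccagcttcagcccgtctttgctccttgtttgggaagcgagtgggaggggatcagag
Myl9: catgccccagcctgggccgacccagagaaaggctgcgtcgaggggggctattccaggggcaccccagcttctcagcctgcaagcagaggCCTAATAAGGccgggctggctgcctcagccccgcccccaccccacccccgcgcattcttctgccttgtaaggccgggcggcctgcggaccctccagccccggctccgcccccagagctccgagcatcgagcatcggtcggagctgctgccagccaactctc
Rnd3: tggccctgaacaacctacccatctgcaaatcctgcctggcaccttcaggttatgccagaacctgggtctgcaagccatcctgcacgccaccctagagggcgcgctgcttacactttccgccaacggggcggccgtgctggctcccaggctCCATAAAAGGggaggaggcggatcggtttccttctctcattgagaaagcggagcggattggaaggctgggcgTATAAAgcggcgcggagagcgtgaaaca

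The CArG box begins at -161 in *Myl9* and at -100 in *Rnd3*, counted back from the transcription start, and *Rnd3* has TATAAA at -28. A CArG box reads alike on both strands. The exact consensus was found in 1.47% of 32851 promoter windows of this length. It was in 3 of the 25 windows that cover 21 genes of the contractile list (*Myl6*, *Myl9* and *Vcl*). TATAAA on the gene's strand was in 7.59% of all windows and on either strand in 12.4%. These letter matches are a description.

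Calcium handling and ion channel genes leaned the other way. Of 22 genes 20 were tested, none was called, and 2VO lay above both sham libraries in 15 and below both in 2. Over all genes 39.8% lay above both and 38.4% below both. The median log2 fold change was 0.30, and 0.39 without the deepest cell. *Pln* had 1185, 1226 and 1018 CPM. *Atp2a2*, the calcium pump that *Pln* restrains, had 1275, 1024 and 1197 CPM and lay between the sham values. *Ryr2*, the calcium release channel, had 34.6, 54.7 and 81.6 CPM. *Kcnmb1*, the beta subunit of the large-conductance potassium channel, had 103, 93.4 and 52.5 CPM and was one of the 2 genes below both.

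Receptors for vasoactive signals gave no call. Of 24 genes 15 had enough counts, and the median log2 fold change was 0.00. In 4 genes 2VO lay above both sham libraries and in 5 below both, against 39.8% and 38.4% of all genes. Without the deepest cell the median was 0.13. The subunits of soluble guanylate cyclase, the nitric oxide receptor, were abundant, with *Gucy1a1* at 513, 532 and 416 CPM. *Rgs5* had 2138, 1319 and 1830 CPM and *Rgs4* had 1308, 837 and 740. *Ramp1*, a subunit of the receptor for calcitonin gene-related peptide, had 240, 377 and 150 CPM, with an adjusted p of 0.238 by edgeR. The alpha-1 adrenergic receptors *Adra1a* and *Adra1d* had no UMI in VSMCs of any library, which allows up to 3 counts in each.

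No regulator of the smooth muscle state passed the test. The 22 Notch and smooth muscle transcription factor genes were all tested with 0 calls and a median log2 fold change of -0.10, which was 0.03 without the deepest cell. *Notch3*, the Notch receptor of mural cells, had 568, 447 and 637 CPM. *Klf2* had 899, 1535 and 719 CPM, *Mef2c* had 898, 613 and 550, and *Ebf1* had 585, 627 and 532. *Myocd*, the cofactor that drives contractile genes, stood at 0.687, 0.603 and 0.491 UMIs per 10000 in VSMCs and at 0.0135 or less in PERs.

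Of 20 genes for fibrillar matrix and the synthetic state 13 were tested and none was called, with 2 higher and 1 lower at an unadjusted p under 0.05. *Vim* (vimentin) had 4258, 3837 and 2330 CPM, with an adjusted p of 0.247 by edgeR, and 2VO was below both sham libraries. *Mgp* had 544, 847 and 606 CPM and *Bgn* had 284, 277 and 239. *Col1a1*, *Spp1*, *Timp1* and *Tnc* had too few counts for the test. The list's median was 0.33, and 0.06 over the 12 genes that could be tested without the deepest cell. Basement membrane genes (15 of 17 tested, median 0.11) and PDGF and TGF-beta genes (20 of 22 tested, median 0.13) had no call either, and their medians were 0.24 and 0.14 without the deepest cell. *Sparcl1* had 7556, 6478 and 4783 CPM, *Sparc* 1207, 802 and 614, *Itgb1* 1582, 1255 and 1413, *Id3* 1351, 2139 and 1990, *Pdgfa* 533, 359 and 365, and *Id1* 285, 408 and 332.

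**Figure D5:**
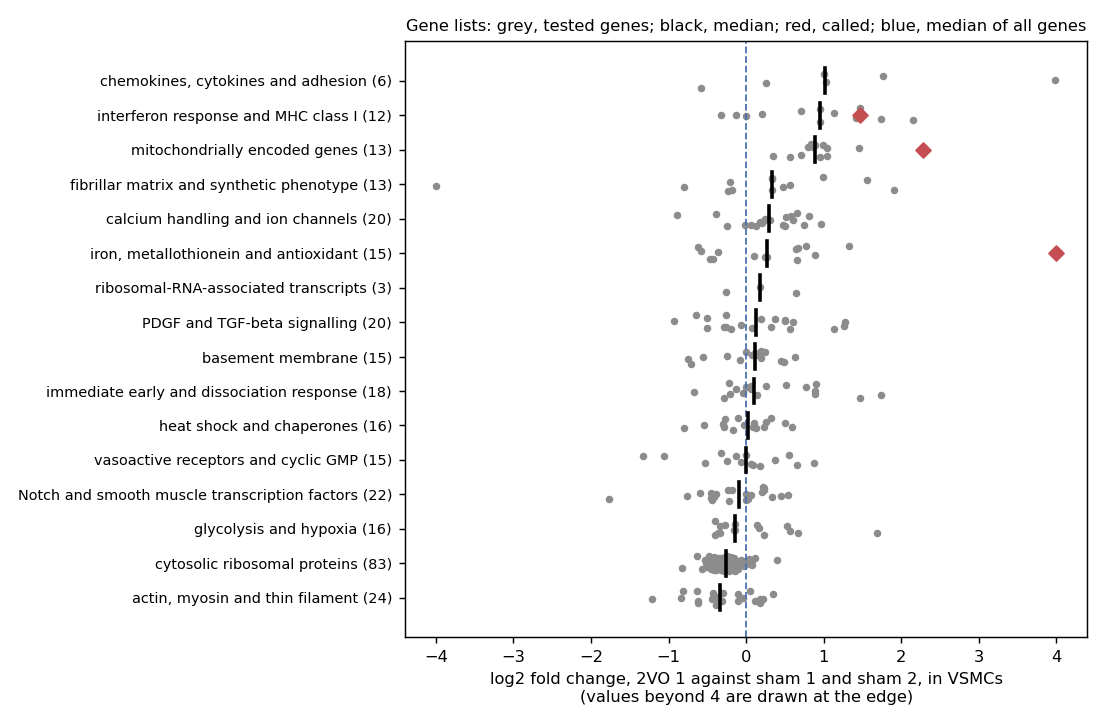
Log2 fold change in VSMCs (2VO 1 against both sham libraries) of the tested genes of 16 lists, with the list's median in black, called genes as red diamonds and the median of all genes as a blue dashed line. The contractile list has a median of -0.33, which was -0.22 without the deepest cell, and 13 of 13 mitochondrially encoded genes lie above 0.

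Mitochondrially encoded genes stood high in 2VO. In 13 of 13 the 2VO level lay above both sham levels, where 39.8% of all genes did, and the median log2 fold change was 0.89. Only *mt-Nd6*, a complex I subunit encoded on the other strand of the mitochondrial genome, was called, at 27.7, 45.8 and 187 CPM. *mt-Atp6* had 5495, 7607 and 10686 CPM, *mt-Co2* had 4880, 6537 and 8471, and *mt-Cytb* had 5962, 7408 and 8465. With cells thinned to 1000 UMIs 12 of 13 were called, and without the deepest cell 4 of 13. Mitochondrial genes took 3.04%, 3.98% and 6.17% of VSMC UMIs in sham 1, sham 2 and 2VO 1, and 3.38%, 4.09% and 5.89% of the UMIs of all kept cells. The shift was thus of like size in the whole libraries. In the same order PERs had 2.59%, 3.82% and 3.99%, and ECs 2.13%, 2.56% and 3.19%, so 2VO stood less far above sham there. The part of RNA quality in the shift was not tested.

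Cytosolic ribosomal protein genes stood low in 2VO. In 72 of 83 tested genes 2VO lay below both sham libraries and in 4 above both, where 38.4% of all genes lay below and 39.8% above. The median log2 fold change was -0.26, with 0 calls. *Rpl41* had 3123, 2927 and 2881 CPM, *Rps29* had 3137, 2928 and 2755, and *Rps24* had 2491, 2687 and 2203, so single genes differed little. The ribosomal-RNA-associated transcripts *Gm42418* (6512, 24705 and 13014 CPM), *Lars2* (339, 1658 and 1142) and *AY036118* (321, 772 and 863) differed between the 2 sham libraries, and *AY036118* was highest in 2VO.

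Of 16 interferon-response and MHC class I genes 12 were tested, and the median log2 fold change was 0.96. Of the 12, 9 lay above both sham libraries and 1 below both, where 39.8% of all genes lay above and 38.4% below. *H2-K1*, an MHC class I heavy chain, was the gene called, at 69.3, 81.5 and 212 CPM with an adjusted p of 0.0286 by edgeR. Its 2VO UMIs were 28.4% in 1 cell, and without the deepest cell the adjusted p was 0.0930. *Irf1* had 44.3, 60.7 and 119 CPM, and *B2m* had 62.3, 92.2 and 153. *Ifitm3* had 518, 458 and 563 CPM, *Ifitm2* had 357, 370 and 332, and *Bst2* had 317, 191 and 200, so the more abundant members differed little. No gene of the list was called without the deepest cell, without cells holding markers of other types or by DESeq2. With cells thinned to 1000 UMIs the median of the 8 testable genes was 0.25.

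The 18 immediate early genes gave 0 calls and a median of 0.10, and the 3 most abundant, *Fos* (2495, 3363 and 2518 CPM), *Jund* (2490, 2615 and 2098) and *Junb* (2253, 2329 and 2522), were near their sham levels. *Egr1* had 129, 246 and 528 CPM, with an adjusted p of 0.0735, and 0.0219 without the deepest cell, both by edgeR. The 16 heat shock genes gave 0 calls and a median of 0.03, with *Hspb1* at 3223, 1675 and 2028 CPM, *Hspa8* at 1251, 778 and 1086 and *Hsp90ab1* at 1153, 932 and 970. Only 6 of 18 chemokine, cytokine and adhesion genes had enough counts, among them *Il6st* (99.8, 77.9 and 105 CPM), *Cxcl12* (26.3, 48.8 and 79.7) and *Il1r1* (36.02, 48.8 and 29.1), and none was called. In 5 of the 6 2VO lay above both sham libraries, where 39.8% of all genes did. Of the 6, 4 were higher at an unadjusted p under 0.05 by edgeR, and the median log2 fold change was 1.01. Without cells that held markers of other types only 4 of these genes could be tested, and their median was 0.12.

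Glycolysis and hypoxia genes gave 0 calls among 16 tested and a median of -0.14. *Gapdh* had 823, 818 and 680 CPM, *Aldoa* had 762, 707 and 571, and *Epas1*, a hypoxia-inducible factor, had 635, 597 and 725. Of 19 iron, metallothionein and antioxidant genes 15 were tested, and *Gpx3*, from the single cell, was the 1 called. Their median of 0.27 became -0.27 over the 14 genes that could be tested without the deepest cell. *Fth1* (ferritin heavy chain) had 6528, 7795 and 4797 CPM and *Gpx4* had 615, 649 and 985. Of the 2VO UMIs of *Gpx4* 50.7% lay in 1 cell, and its log2 fold change of 0.64 became -0.25 without the deepest cell. *Mt1* and *Mt2*, the metallothioneins that bind zinc and copper, had 1021, 1156 and 1861 CPM and 67.9, 79.1 and 187 CPM. *Mt2* was just short of the threshold at an adjusted p of 0.0544 by edgeR, and passed without the deepest cell at 0.0160.

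Whether VSMCs responded differently from their neighbours was tested as the response of VSMCs minus that of the other class, with the library as a block. In PERs alone 127 of 6272 genes (2.02%) rose and 83 (1.32%) fell in 2VO, and in ECs 115 of 11985 (0.960%) rose and 9 (0.0751%) fell. Against PERs 21 of 9850 genes (0.213%) were called with a higher response in VSMCs and 18 (0.183%) with a lower one. Without the deepest cell the counts were 13 and 15. *Gm13889* had 2516, 4011 and 3057 CPM in VSMCs and 453, 734 and 127 in PERs on the scale shared by both classes, a difference of responses of 2.13 ± 0.35 on the log2 scale. *Bst2*, an interferon-induced membrane protein, had 376, 229 and 227 CPM in VSMCs and 29.7, 62.8 and 216 in PERs. *Fth1* had 7737, 9349 and 5445 CPM in VSMCs and 1265, 1558 and 2689 in PERs, a difference of -1.58 ± 0.27. The 2VO level was the highest of 3 in PERs for both *Bst2* and *Fth1*. In VSMCs it was the lowest for *Fth1*, while for *Bst2* it was close to sham 2.

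Against ECs 7 of 12093 genes (0.0579%) had a higher response in VSMCs and 9 (0.0744%) a lower one. *Fth1* was among the latter, with 6936, 8292 and 4957 CPM in VSMCs and 1987, 2226 and 5301 in ECs on their shared scale, a difference of -1.95 ± 0.21. *Igfbp4*, a binding protein for insulin-like growth factors, had 336, 394 and 203 CPM in VSMCs and 7.64, 6.21 and 40.2 in ECs. *Mgp* (matrix Gla protein, which restrains calcification) had 579, 901 and 626 CPM in VSMCs and 135, 142 and 665 in ECs, and *Cryab*, a small heat shock protein, had 858, 703 and 614 against 41.9, 31.7 and 131. In these 4 genes ECs had their highest level in 2VO and VSMCs did not. The 5 smooth muscle markers together were also highest in 2VO ECs, at 0.288, 0.511 and 1.00 UMIs per 10000 in the same order. Whether RNA of VSMCs contributed to the EC levels of the 4 genes was not tested. *Acta2* and *Tagln* also passed but are genes of the rule, so no result is drawn from them.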

How the data were processed

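Whole hippocampi of C57BL/6 mice were dissociated and run on the 10x Genomics 3′ chemistry, 1 mouse per library. Alignment by the authors used Cell Ranger 3.1.0 and GRCm38/mm10, and they deposited raw UMI counts per gene and barcode, and the submitters' notes also name Seurat 3.2.2. How cells were called is not given in the sources used here. The kept cells held 64667950 (sham 1), 39017426 (sham 2) and 17681002 (2VO 1) UMIs. Members were found by the rule above. The members and gene lists were chosen with earlier results of these data known. UMIs were summed per library and class and tested with edgeR 4.0.16 (TMM, filterByExpr, quasi-likelihood test, Benjamini-Hochberg adjustment over all genes, fold over 1.5), with DESeq2 1.42.0 as an alternative. The labels give separate samples, 1 mouse each per the methods. The p-values rest on a spread between these few libraries that edgeR shares across genes. A gene's own spread between the sham libraries can thus count for little. *Ptgds* was called as differing from PERs although its sham PER levels were 82.6 and 6100 CPM. Intervals cover counting error only. Each 3′ tag counts 1 molecule, so levels do not scale with gene length. Named were the 5 markers, the 12 higher called genes with the smallest p and at least 50 counts, the 6 lower by p as values since under 3 were called, the 3 most abundant tested members of each list, and for differences between classes the 5 higher and 5 lower by p outside the gates. Genes outside this rule were chosen after their values were seen. Scrublet's automatic threshold marked 102, 132 and 1 barcodes in sham 1, sham 2 and 2VO 1, so it did not work in 2VO 1, and the top 5% of scores in each library were left out as an alternative in its place. Alternatives that leave out the deepest 2VO cell, members over 3 times the median depth, or cells with markers of other types were chosen after seeing the data. Coordinates are from GENCODE vM21. On simulated data for 2VO against sham in VSMCs (7897 genes tested), 14 of 100 genes changed 2-fold and 83 of 100 changed 4-fold were called, with 3 false calls. The simulation gave every gene the same dispersion (0.0344) and both sham libraries the same mean. It changed only more abundant genes and held no outlying cell. Its rates, that of false calls among them, thus need not hold for the real counts. A few genes that the naming rule selects are not reported here.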

Additional observations from a re-analysis of the deposited data

Results flagged for a closer look

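Responses to 2VO that differed between VSMCs and another class by the test of the difference itself were marked for a closer look. Against PERs these were 21 genes with a higher and 18 with a lower response in VSMCs, and against ECs 7 and 9. The values that follow are log2 differences of the response, VSMCs minus the other class, by edgeR. Against PERs they were 5.74 for *Ptgds*, 4.89 for *Igfbp2*, 2.45 for *Ifitm1*, 11.28 for *Maob*, 2.13 for *Gm13889*, -2.34 for *Bst2*, -1.58 for *Fth1*, -1.73 for *Enpp2*, -3.44 for *Snhg11* and -1.35 for *Jun*. Against ECs they were 4.84 for *Maob*, 3.13 for *Ucp2*, 5.84 for *Hbb-bt*, 3.93 for *Igfbp2*, 4.37 for *Hba-a1*, -3.41 for *Igfbp4*, -1.95 for *Fth1*, -5.31 for *Atp8b1*, -2.48 for *Mgp* and -2.19 for *Cryab*. *Maob* had 0 CPM in 2VO PERs, so its value of 11.28 depends on the prior count.

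*Igfbp2*, *Ifitm1*, *Maob* and *Ucp2* took 88.7% or more of their 2VO VSMC UMIs from 1 cell. Without the deepest 2VO cell the difference of *Igfbp2* was -2.72 against PERs and -3.75 against ECs, that of *Ifitm1* against PERs was -0.58, and none of these genes was called. *Ptgds* stayed called at 4.61 against PERs, where its level was 82.6, 6100 and 526 CPM in sham 1, sham 2 and 2VO 1, so sham 2 sets the PER response. *Hbb-bt* and *Hba-a1* are haemoglobin genes, and their EC levels in sham 1, sham 2 and 2VO 1 were 8.62, 95.7 and 55.2 CPM and 52.5, 187 and 141 CPM.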

How the results depend on the processing

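No paired analysis was possible because the sham and 2VO libraries analysed share only replicate number 1. The count of called genes in VSMCs (42 in all, 41 higher and 1 lower) depended on the setting. It was 65 (60 and 5) with TMM factors set without mitochondrial, ribosomal-RNA-associated and haemoglobin genes, 230 (151 and 79) without a filter on low counts, 261 (199 and 62) with cells of at least 200 genes, 14 (14 and 0) with a smooth muscle sum of at least 100, 163 (153 and 10) without the top 5% of doublet scores, 65 (61 and 4) with cells thinned to 1000 UMIs, 94 (81 and 13) with PER markers under 20, and 4 (4 and 0) by DESeq2. It was 12 (12 and 0) without cells that held markers of other types, 50 (47 and 3) without the deepest 2VO cell and 32 (31 and 1) without members over 3 times the median depth. Among the 5 of the 42 genes called under every edgeR setting run were *Neat1*, *Kcnq1ot1*, *Ptgds* and *mt-Nd6*, and among the 4 called by DESeq2 were *Gpx3*, *Maob* and *Neat1*. Without sham 1 the log2 fold change moved for 20 of the 42 called genes and without sham 2 for 23, and 0 of the 42 changed sign. A gene was counted as moved where the change was at least its standard error in the main edgeR fit.

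For the difference from PERs the count of 39 became 8 (3 and 5) after thinning, and without the deepest cell 28, with 13 higher. For the difference from ECs the count of 16 became 140 (69 and 71) without a filter and 134 (83 and 51) without top doublet scores, while after thinning and without the deepest cell it had 4 higher genes. *Enpp2* turned to 0.26 against PERs without top doublet scores. The share of VSMCs in sham 2 was 4.29% with cells of at least 200 genes. Signs turned for *Igfbp2* (-2.65 without the deepest cell, -1.65 without deep members, -1.17 without cells of other types), *Ucp2* (-0.59, -0.20 and -0.72), *Ifitm1* (-1.23, -1.22 and -0.997), *Ezr* (-1.24 and -0.90 in the first 2) and *1500015O10Rik* (-0.67 in the first), and for *Gpx4*, which was not called (-0.25, -0.27 and -0.19). Against PERs and ECs *Igfbp2* turned to -2.72 and -3.75, and *Ifitm1* to -0.58 against PERs, without the deepest cell. The causes of changes other than leaving out cells were not tested. With 1 2VO library and 1 residual degree of freedom, small changes of the cell set moved the calls. In the simulation 2-fold changes were mostly missed.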
